A study of Mus musculus with 11 samples.

Results

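Lhx3 and Lhx4 are closely related LIM-homeodomain transcription factors, 2 of the 18193 genes that a mouse Affymetrix array measured with probe sets of a single symbol. By the platform annotation, 4 of the 45101 probe sets carried the symbol of either gene and no other. Probe sets 1425041_at and 1421753_a_at measured Lhx3, and 1439905_at and 1421483_at measured Lhx4. They were read on 11 arrays, 1 per sample, of motor neurons sorted from embryos of the C57/BL6 strain. All embryos carried Hb9::GFP, a green fluorescent reporter driven by the promoter of the motor neuron gene Mnx1 (Hb9). Of the arrays, 4 held phrenic neurons, the motor neurons of the diaphragm, and 3 held limb motor neurons of the lateral motor column (LMC) traced from the radial nerve. Both had taken up a rhodamine dextran from the nerve concerned in trunk explants. The remaining 4 arrays, called C3-C5 GFP-only, held cells of those cervical segments that were sorted by the reporter without dextran. Their motor columns are not stated. No embryonic age, segment of the LMC radial cells or pooling of embryos is given in the sources used here, and p-values therefore cover array-to-array spread only, which may be technical. Segment level and cell type cannot be told apart in comparisons with LMC radial cells. Dextran labelling and cell type cannot be told apart in comparisons with C3-C5 GFP-only cells.

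LIM-homeodomain proteins bind DNA through a homeodomain and bind the adaptor Ldb1 through their LIM domains. In newborn mouse motor neurons Lhx3 joins Isl1 and Ldb1 in a complex that switches on motor neuron genes, while Lhx3 with Ldb1 alone is known from V2 interneurons. Both Lhx3 and Lhx4 are on in motor neurons as they are born, and later remain in the medial motor column, which innervates axial muscle, while limb-innervating columns turn them off. The question was how the transcripts of both genes were distributed over the cell types, and how evenly within the phrenic arrays.

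Because both genes were highest in the same samples, the DNA upstream of their transcription starts is shown, from RefSeq on build GRCm38.p6, all on the minus strand and 250 bases each. Lhx3 has 2 annotated starts in this set, and Lhx4 has 1. The outer Lhx3 window is chr2:26208250-26208499, upstream of the annotated gene. The inner Lhx3 window is chr2:26206576-26206825 and the Lhx4 window is chr1:155742028-155742277, both inside the annotated span of their gene. Capitals mark matches, on either strand, to TAAT (a homeodomain core), CANNTG (an E-box, bound by proneural factors) or TGATNNAT (a composite of Hox and Pbx proteins). None of the matches shown overlap each other.
Lhx3 outer start: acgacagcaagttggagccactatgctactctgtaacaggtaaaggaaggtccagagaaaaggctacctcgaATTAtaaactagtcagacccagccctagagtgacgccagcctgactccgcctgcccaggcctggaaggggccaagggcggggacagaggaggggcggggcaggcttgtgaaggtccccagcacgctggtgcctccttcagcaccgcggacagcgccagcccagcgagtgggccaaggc
Lhx3 inner start: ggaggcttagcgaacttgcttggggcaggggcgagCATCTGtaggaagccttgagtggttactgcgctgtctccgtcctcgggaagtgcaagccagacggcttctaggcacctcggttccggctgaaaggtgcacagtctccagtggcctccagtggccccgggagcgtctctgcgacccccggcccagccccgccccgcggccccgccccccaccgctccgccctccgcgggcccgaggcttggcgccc
Lhx4 start: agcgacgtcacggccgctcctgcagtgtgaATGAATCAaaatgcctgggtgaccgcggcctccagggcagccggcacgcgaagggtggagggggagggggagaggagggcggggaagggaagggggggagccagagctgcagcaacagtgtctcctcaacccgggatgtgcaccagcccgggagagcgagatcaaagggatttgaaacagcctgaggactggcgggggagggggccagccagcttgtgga
The outer Lhx3 window held 1 match to TAAT, the inner window 1 match to CANNTG and the Lhx4 window 1 match to TGATNNAT. The longer homeodomain sequence TAATTA, which contains TAAT, was in none of the 3 windows. Among 32851 windows of the same length, 54.9% held TAAT, 66.2% CANNTG, 7.68% TGATNNAT and 4.84% TAATTA. The windows were rich in G and C, at 62% for the outer Lhx3 start, 70.8% for the inner one and 66% for Lhx4. These matches describe letters in these windows only.

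The values are on a log2 scale as RMA gives them, with array medians between 4.48 and 4.63, so that 5 is used here as a mark near the middle of each array. The 25th percentile was 3.18 to 3.20 on replicates 2 and 3 of both the phrenic and the C3-C5 GFP-only group, and 3.26 to 3.38 on the other 7 arrays, all 3 LMC radial ones included. Mnx1, the gene of the reporter's promoter, was at 9.01 ± 0.09 in phrenic (SD, n = 4), 8.14 ± 0.07 in LMC radial (n = 3) and 9.07 ± 0.16 in C3-C5 GFP-only cells (n = 4). Since the reporter used in sorting is driven by this promoter, its level is no separate support for the motor neuron label. The acetylcholine transporter gene Slc18a3 had means between 7.70 and 8.21. Chat, the acetylcholine-synthesizing enzyme and a defining marker of motor neurons, was dim, with means of 5.48 in phrenic, 4.92 in LMC radial and 5.69 in C3-C5 GFP-only cells. The number of arrays limits the precision.

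Lhx3 was abundant in C3-C5 GFP-only cells and low in both dextran-labelled types. Probe set 1425041_at, the brighter of its pair, read 4.22, 4.79, 4.49 and 6.93 in phrenic replicates 1 to 4. It read 3.63, 4.01 and 3.91 in LMC radial replicates 1 to 3, and 9.86, 10.09, 10.17 and 9.92 in C3-C5 GFP-only replicates 1 to 4. Every C3-C5 GFP-only array thus lay above every other array, and phrenic replicate 4 was the only dextran-labelled array above 5. The means were 5.11 ± 1.24 in phrenic (SD, n = 4), 3.85 ± 0.20 in LMC radial (n = 3) and 10.01 ± 0.15 in C3-C5 GFP-only cells (n = 4).

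The second Lhx3 probe set, 1421753_a_at, was dimmer and gave the same order of the C3-C5 GFP-only cells against the rest. It read 3.58, 2.96, 3.14 and 3.76 in phrenic, 3.27, 2.89 and 3.64 in LMC radial, and 6.12, 5.54, 5.77 and 5.96 in C3-C5 GFP-only replicates in numerical order. All 7 dextran-labelled arrays were below 5 on this probe set. The phrenic and LMC radial arrays overlapped, and phrenic replicate 4 was not set apart from the other phrenic arrays on it.

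Lhx4 was also highest in C3-C5 GFP-only cells, but its brighter probe set stayed well above the array medians in every sample. Probe set 1439905_at read 7.58, 8.46, 9.29 and 9.30 in phrenic, 8.62, 8.25 and 8.23 in LMC radial, and 11.83, 11.85, 11.92 and 11.93 in C3-C5 GFP-only replicates in numerical order. The phrenic arrays spread on both sides of the LMC radial arrays, with replicate 1 below all of them and replicates 3 and 4 above. The group means were 8.66 ± 0.82 in phrenic (SD, n = 4), 8.36 ± 0.22 in LMC radial (n = 3) and 11.88 ± 0.05 in C3-C5 GFP-only cells (n = 4).

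The dimmer Lhx4 probe set, 1421483_at, read 3.09, 3.10, 2.91 and 3.30 in phrenic, 3.43, 3.34 and 3.35 in LMC radial, and 7.04, 6.81, 6.85 and 6.18 in C3-C5 GFP-only replicates in numerical order. All 7 dextran-labelled arrays were below 5. The probe sets of Lhx4 therefore disagreed on whether phrenic and LMC radial cells had a signal above the middle of the array, while they agreed on the order of C3-C5 GFP-only cells against the rest. Levels of different probe sets are not on a common scale and were not set against each other.

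**Figure D1:**
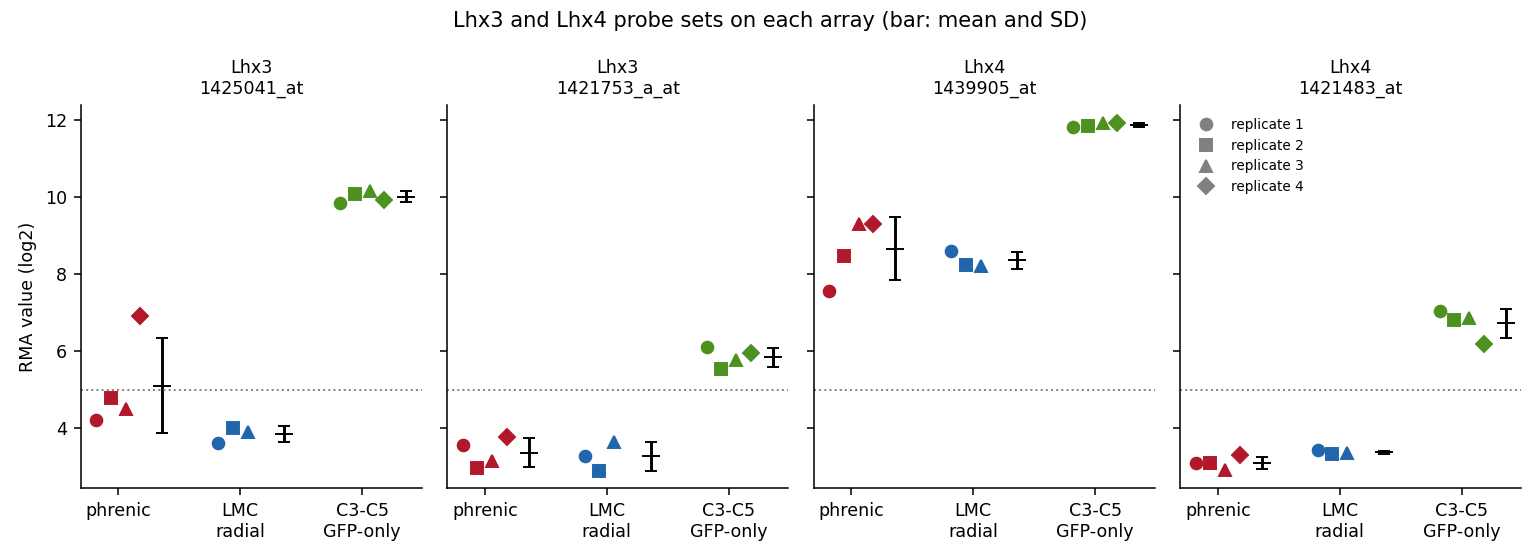
RMA values on the log2 scale (y axis) of the 4 probe sets of Lhx3 and Lhx4, by cell type (x axis). Points are single arrays with a shape for each replicate number, black bars are the mean and SD, and the dotted line marks 5. On each probe set every C3-C5 GFP-only array lies above all 7 other arrays, and phrenic replicate 4 stands at 6.93 on 1425041_at.

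Phrenic neurons had less Lhx3 and Lhx4 transcript than C3-C5 GFP-only cells on all 4 probe sets. On the brighter probe sets the difference, phrenic minus C3-C5 GFP-only, was -4.90 ± 0.47 (log2, SE) for Lhx3 (limma, adjusted p = 0.000385) and -3.22 ± 0.32 for Lhx4 (limma, adjusted p = 0.000477). On these probe sets Lhx3 was 23.1-fold lower with values below 5 raised to 5, and Lhx4 was 9.34-fold lower. The dimmer probe sets fell by 2.49 on the log2 scale for Lhx3 (SE 0.22, limma, adjusted p = 0.000185) and by 3.62 for Lhx4 (SE 0.17, limma, adjusted p = 4.16e-06). The 4 calls stand against 0.986% of the 45037 probe sets tested that were called lower in this comparison, and 0.973% that were called higher. All 4 showed no overlap of arrays in this direction, as did 3.98% of all probe sets, while 3.51% did so in the other. The exact two-sided permutation test over arrays gave p = 0.0286 for each, the smallest this design allows. Of all probe sets, 1425041_at had the most negative difference, 1421483_at ranked 10, 1439905_at ranked 20 and 1421753_a_at ranked 49. In bulk RNA of sorted cells, fewer cells with a transcript and less transcript per cell cannot be told apart.

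LMC radial neurons differed from C3-C5 GFP-only cells in the same direction. The difference, LMC radial minus C3-C5 GFP-only, was -6.16 ± 0.51 for Lhx3 on 1425041_at (limma, adjusted p = 0.000173), at least 32.3-fold lower. It was -3.52 ± 0.35 for Lhx4 on 1439905_at (limma, adjusted p = 0.000541), 11.5-fold lower. The dimmer probe sets gave -2.58 ± 0.23 for Lhx3 and -3.35 ± 0.18 for Lhx4 (limma, adjusted p = 0.000285 and 1.59e-05). Called lower in this comparison were 1.88% of all probe sets, as many as were called higher. With no overlap of arrays, 11.7% were lower and 11.4% higher. The exact permutation test gave p = 0.0571 for each of the 4, the smallest possible with 3 arrays against 4. Lhx3 on 1425041_at again had the most negative difference of all 45037 probe sets. Both comparisons use the same 4 C3-C5 GFP-only arrays, so they are not separate evidence that these arrays were high.

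Between phrenic and LMC radial neurons no probe set of either gene passed the test, where 3.48% of all probe sets were called higher in phrenic and 3.14% lower. The difference, phrenic minus LMC radial, was 1.26 ± 0.51 for Lhx3 on 1425041_at, with a 95% interval of 0.14 to 2.38 (limma, adjusted p = 0.175), and it was the 1 of 4 with an unadjusted p under 0.05. The lowest phrenic array was above the highest LMC radial array on it by 0.21 (exact two-sided permutation p = 0.0571, the smallest possible), and 8.08% of all probe sets were likewise higher with no overlap. On 1421753_a_at the Lhx3 difference was 0.09 ± 0.23 (95% interval -0.42 to 0.61). For Lhx4 it was 0.30 ± 0.35 on 1439905_at (95% interval -0.47 to 1.06, limma, adjusted p = 0.664) and -0.27 ± 0.18 on 1421483_at (95% interval -0.67 to 0.13). The arrays on 1421483_at did not overlap, with LMC radial higher, as for 10.6% of all probe sets, but all 7 were below 5. Ordered by level, C3-C5 GFP-only cells were thus first for both genes, and phrenic and LMC radial neurons were not told apart by the test adjusted over all probe sets.

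**Figure D2:**
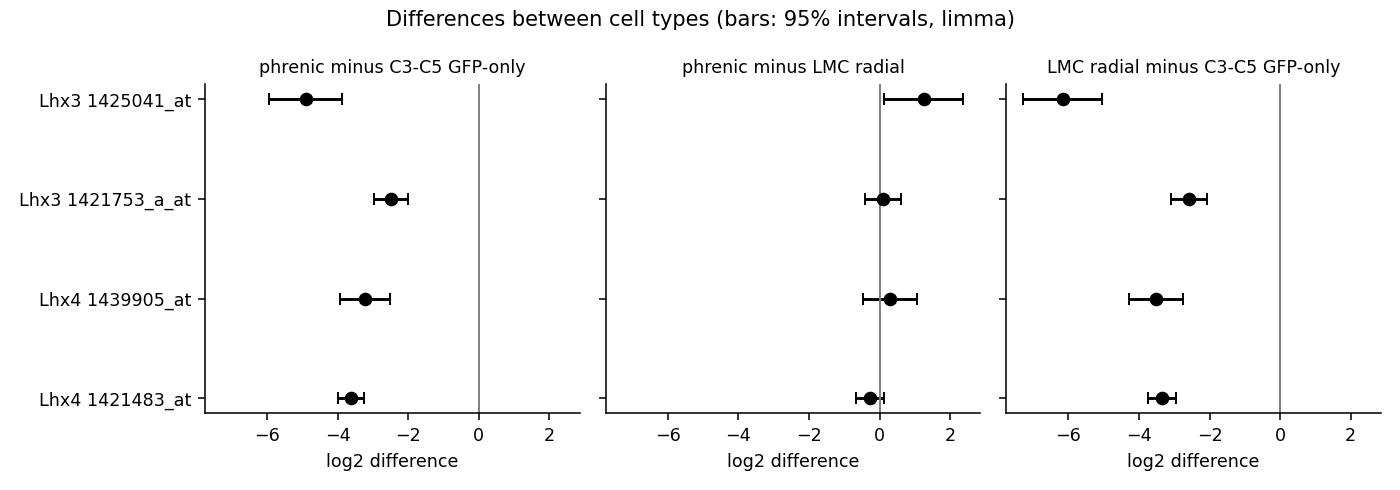
Log2 differences (x axis) between cell types for each probe set of Lhx3 and Lhx4 (rows), 1 panel per comparison. Points are limma estimates and bars their 95% intervals, not adjusted for the number of probe sets. Both comparisons with C3-C5 GFP-only cells lie below 0 on all 4 probe sets, while the phrenic minus LMC radial estimates lie between -0.27 and 1.26.

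The phrenic arrays varied more than the others on the brighter probe set of each gene. For Lhx3 on 1425041_at they spanned 2.70 log2 units, against 0.39 in LMC radial and 0.31 in C3-C5 GFP-only arrays. The phrenic SD of 1.24 was larger than the phrenic SD of 99% of all probe sets. For Lhx4 on 1439905_at the span was 1.72 in phrenic, 0.39 in LMC radial and 0.10 in C3-C5 GFP-only arrays, and the phrenic SD of 0.82 exceeded that of 94.7% of probe sets. Replicate 4 was the highest phrenic array on all 4 probe sets. On 1425041_at it stood apart from the other phrenic arrays, while on 1439905_at replicate 3 (9.29) was almost level with it (9.30). The dimmer probe sets, with all phrenic arrays below 5, did not show a spread of this size. For Lhx3 on 1421753_a_at the SD was 0.37 in phrenic, above that of 69.3% of probe sets, and 0.37 in LMC radial arrays. For Lhx4 on 1421483_at the phrenic SD of 0.16 exceeded that of 26.9% of probe sets.

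Whether Lhx3 on 1425041_at was called between phrenic and LMC radial neurons turned on a single array. Without phrenic replicate 4 its difference shrank to 0.65, with an SE of 0.17 in place of 0.51. It then passed the test (limma, adjusted p = 0.0373), while no other probe set of either gene did. The 3 remaining phrenic arrays and the 3 LMC radial arrays were then all below 5 on 1425041_at, so this is a difference between values under that mark. With values below 5 raised to 5 and all arrays kept, the difference was 0.48 ± 0.45. Without the same array the phrenic minus C3-C5 GFP-only difference grew to -5.51 for Lhx3 and -3.44 for Lhx4. Among the 7 arrays of higher 25th percentile, which hold 2 phrenic arrays, phrenic minus C3-C5 GFP-only was -4.31 ± 0.76 for Lhx3 (limma, adjusted p = 0.0994) and -3.44 ± 0.50 for Lhx4 (adjusted p = 0.0665). Within the other 4 arrays it was -5.49 ± 0.15 (adjusted p = 0.0239) and -3.00 ± 0.30 (adjusted p = 0.059).

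**Figure D3:**
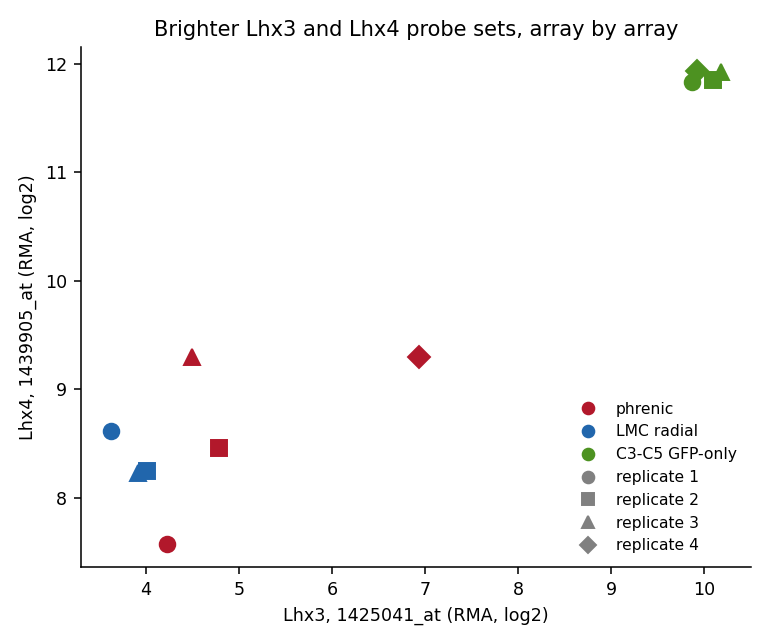
Lhx4 on 1439905_at (y axis) against Lhx3 on 1425041_at (x axis), both as RMA values on the log2 scale, for each of the 11 arrays. Colours give the cell type and shapes the replicate number. The 4 C3-C5 GFP-only arrays lie together at the upper right, and the 4 phrenic arrays are scattered over 4.22 to 6.93 for Lhx3 and 7.58 to 9.30 for Lhx4.

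Phrenic replicate 4 was also high in markers of other cells. Its array mean over 13 mesenchyme markers was 7.16, against 5.40 to 6.83 in the other phrenic arrays, 4.92 to 6.23 in LMC radial and 4.33 to 4.83 in C3-C5 GFP-only arrays. Its mean over 9 markers of cycling progenitors was 7.74, against 5.96 to 6.52 in the other phrenic, 5.64 to 6.68 in LMC radial and 5.47 to 5.68 in C3-C5 GFP-only arrays. The same array was highest of all 11 in the V2 interneuron list, at 4.95, against 4.02 to 4.39 in the other phrenic arrays and 3.95 to 4.58 in the remaining ones. It was also highest of all 11 in the sensory neuron list, at 8.34, against 7.58 to 7.91 in the other phrenic arrays, and in the list of other interneurons, at 4.36, against 3.65 to 4.30. The sensory list had 4 measured genes, with the motor neuron gene Isl1 among them. Its Pou4f1 read 10.81 on that array, with group means from 9.12 to 9.43. In the glial, blood and vessel list the array was not highest of all 11, at 4.71 against 4.89 in LMC radial replicate 1. Of the 9 measured genes of other interneurons 8 were below 5 on every array. Lbx1, a marker of dorsal interneurons in that list, read 9.06, 7.31, 7.12 and 10.19 in phrenic replicates 1 to 4, against 6.51 to 8.18 in LMC radial and 5.87 to 6.74 in C3-C5 GFP-only arrays. The mean over 8 listed factors of neural progenitors was 6.45 in phrenic replicate 4, 5.18 to 5.62 in the other phrenic arrays and 6.12 to 6.26 in C3-C5 GFP-only arrays.

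Of the 8 measured V2 genes Vsx1, Sox14, Gata3, Tal1 and Foxn4 were below 5 on every array. Of the 13 mesenchyme genes limma called 3 higher in phrenic than in C3-C5 GFP-only cells and 0 lower, against 1.43% of all genes called higher, with 11 of 13 at an unadjusted p under 0.05 and a median difference of 1.91. The 3 were Foxc1 (2.15 ± 0.38), Fn1 (1.49 ± 0.26) and Postn (1.35 ± 0.28). Foxc1 missed the threshold with replicate number as a block (limma, adjusted p = 0.0518). Fn1 did so without C3-C5 GFP-only replicate 3 or 4 (limma, highest adjusted p = 0.0545). Postn was kept only without phrenic replicate 3 or 4 among the 11 fits that left out 1 array (limma, highest adjusted p = 0.128), and its difference was 0.18 with values below 5 raised to 5. The count was 1 without C3-C5 GFP-only replicate 3 or 4, and 7 without phrenic replicate 2. Lum, a collagen-binding proteoglycan, was below 5 on every array. Limma called 0 of the 13 in phrenic minus LMC radial (1 without phrenic replicate 3; 2 at an unadjusted p under 0.05) and 0 in LMC radial minus C3-C5 GFP-only (6 unadjusted; 3 called without phrenic replicate 4 and 1 without phrenic replicate 2). The part of these cells in the Lhx3 and Lhx4 values was not tested. Of 279 probe sets called at least 2-fold lower in phrenic than in C3-C5 GFP-only cells, 36.6% were highest among the phrenic arrays in replicate 4, against 32% of all probe sets. Of 257 called at least 2-fold higher, 22.6% were highest in that array.

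The genes whose profile over the 11 arrays was most like that of Lhx3 on 1425041_at were Sp8 (Pearson r = 0.993), Nkx6-1 (0.989), Rgs8 (0.962), Rmst (0.959) and Bcl11a (0.952). For Lhx4 on 1439905_at they were Nkx6-1 (0.976), Dis3l (0.962), Sp8 (0.961), Rgs8 (0.953) and Bcl11a (0.944), so that 4 of 5 were the same. They were sought among 866 genes whose highest group mean was at least 6 and whose group means spanned at least 1. Lhx3 and Lhx4 correlated with each other at r = 0.965. The arrays fall into C3-C5 GFP-only and other samples, so these values mostly describe that step, and no p is given.

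Sp8, a zinc-finger transcription factor, had means of 5.74 ± 0.66 in phrenic, 4.96 ± 0.28 in LMC radial and 9.87 ± 0.29 in C3-C5 GFP-only cells. Nkx6-1, a homeodomain factor that specifies motor neuron progenitors, had 5.11 ± 0.48 in phrenic, 4.69 ± 0.19 in LMC radial and 7.65 ± 0.20 in C3-C5 GFP-only cells. Rmst, a long noncoding RNA, was at 6.42 in phrenic replicate 4 and between 5.13 and 5.20 in the other phrenic arrays, against 6.31 to 6.83 in C3-C5 GFP-only arrays. Replicate 4 was the highest phrenic array for Sp8 (6.66), Nkx6-1 (5.81), Rmst, Bcl11a (9.39) and Dis3l (6.24), as it was for Lhx3 and Lhx4. Their choice by correlation over arrays that include replicate 4 favours such a match, so it is no separate support. Of all probe sets, 32% were highest among the phrenic arrays in replicate 4. For Rgs8, a regulator of G-protein signalling, replicate 2 was the highest phrenic array at 5.89.

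**Figure D4:**
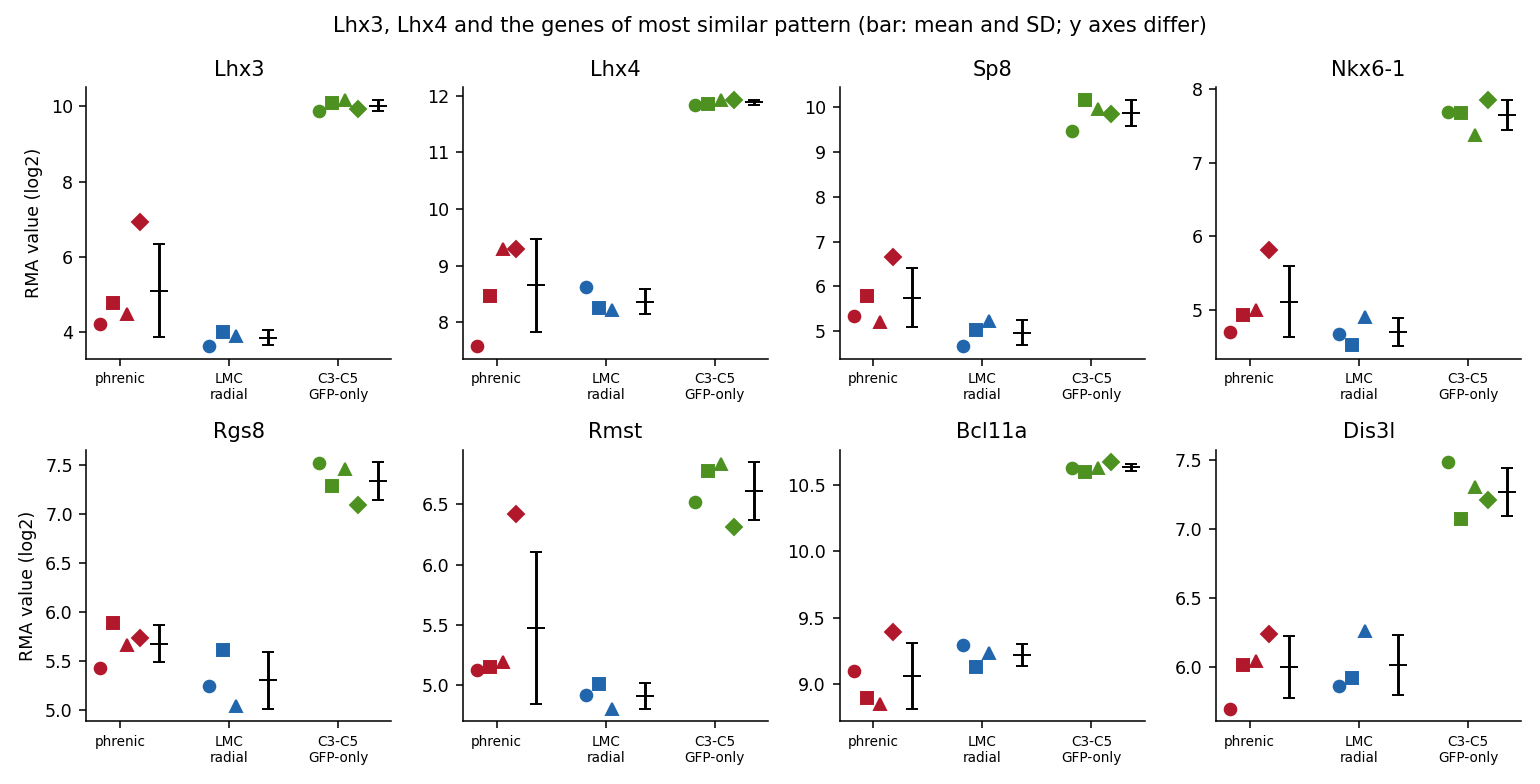
RMA values on the log2 scale (y axes, which differ between panels) of Lhx3 and Lhx4 on their brighter probe sets and of the 6 genes of most similar profile, by cell type (x axis). Points are arrays, with circles, squares, triangles and diamonds for replicates 1, 2, 3 and 4, and bars are the mean and SD. The C3-C5 GFP-only arrays are high in every panel, which the choice by correlation with Lhx3 or Lhx4 favours. For Rmst phrenic replicate 4 reaches 6.42, inside the range of C3-C5 GFP-only arrays.

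Of the other 10 LIM-homeodomain genes, 6 (Lhx2, Lhx5, Lhx6, Lhx9, Lmx1a and Lmx1b) were below 5 on every array. Phrenic cells against C3-C5 GFP-only cells had 1 of the 10 called lower and 0 higher, against 1.31% of all genes called lower and 1.43% higher, and the median difference was 0.04 beside 0.01 over all 18193 genes. The 1 was Isl2, which marks young motor neurons, at 6.79 ± 0.09 in phrenic (SD, n = 4) and 7.78 ± 0.05 in C3-C5 GFP-only cells (n = 4). Its difference was -0.99 ± 0.16 (limma, adjusted p = 0.0105). LMC radial cells had Isl1 and Isl2 lower than C3-C5 GFP-only cells, 2 of 10 against 2.03% of all genes called lower and 1.70% higher. Isl1, the partner of Lhx3 in the motor neuron complex, read 10.92, 9.71 and 8.26 in LMC radial arrays, against 11.88 to 12.08 in C3-C5 GFP-only arrays, and read 12.18 to 12.43 in phrenic arrays. Its phrenic minus LMC radial difference was 2.69 ± 0.45 (limma, adjusted p = 0.00521), and its LMC radial minus C3-C5 GFP-only difference of -2.36 ± 0.45 (adjusted p = 0.0177) no longer passed without C3-C5 GFP-only replicates 2 or 3 or LMC radial replicate 2 (highest adjusted p = 0.0602). Phrenic neurons thus had Isl1 beside low Lhx3, and their Isl1 difference from C3-C5 GFP-only cells, 0.33 ± 0.41, did not pass (limma, adjusted p = 0.838). Lhx1, a gene of limb-innervating motor neurons, was lower in phrenic than in LMC radial cells (-2.91 ± 0.41, limma, adjusted p = 0.00193). The list's count in phrenic minus C3-C5 GFP-only was 2 without phrenic replicate 4, and 2 with replicate number as a block.

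Among 10 genes of proteins that join or compete in LIM complexes, Ldb1 and Ldb2, the adaptors, did not pass in any comparison. Ldb1 means were 7.52 in phrenic, 7.73 in LMC radial and 7.61 in C3-C5 GFP-only cells, and Ldb2 means were 5.84, 6.64 and 8.22 in the same order. Lmo3 and Lmo4, LIM-only proteins that compete for Ldb1, were the 2 of 10 called lower in phrenic than in C3-C5 GFP-only cells, beside 1.31% of all genes. Lmo4 was at 6.52 ± 0.39 in phrenic, 5.09 ± 0.23 in LMC radial and 7.80 ± 0.06 in C3-C5 GFP-only cells, an order shared with Lhx3 means. Its phrenic minus C3-C5 GFP-only difference was -1.28 ± 0.18 (limma, adjusted p = 0.0041), and its LMC radial minus C3-C5 GFP-only difference was -2.71 ± 0.19 (adjusted p = 6.95e-05). Lmo3 had another order, at 7.76 ± 0.82 in phrenic, 11.89 ± 0.07 in LMC radial and 10.75 ± 0.02 in C3-C5 GFP-only cells. The list had 2 of 10 lower in LMC radial than in C3-C5 GFP-only cells, Lmo1 and Lmo4, beside 2.03% of all genes (4 called without phrenic replicate 4), and its median difference was -0.17 in phrenic and -0.20 in LMC radial cells against C3-C5 GFP-only cells.

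Of 7 genes known as targets of the Isl1 and Lhx3 complex, 0 were called by limma between phrenic and C3-C5 GFP-only cells, with 2 at an unadjusted p under 0.05 and a median difference of 0.000432. The low Lhx3 of phrenic cells stood beside a Mnx1 difference of -0.07 ± 0.10 and levels of Slc18a3 of 7.70 ± 0.29 in phrenic, against 8.21 ± 0.33 in C3-C5 GFP-only cells. The sorting reporter is driven by the Mnx1 promoter, so the Mnx1 values are not independent of the sort. In LMC radial cells 3 of the 7 were called lower than in C3-C5 GFP-only cells, Isl1, Mnx1 (-0.93 ± 0.11, limma, adjusted p = 0.00193) and Ache, the acetylcholine-degrading enzyme (-1.19 ± 0.28, adjusted p = 0.041), beside 2.03% of all genes called lower and 1.70% higher. The Ache call was lost without any of C3-C5 GFP-only replicates 1 to 3, LMC radial replicates 1 or 2, or phrenic replicate 2 (highest adjusted p = 0.136), and with it and Isl1 lost the count was 1 without C3-C5 GFP-only replicates 2 or 3 or LMC radial replicate 2. Of the same 7, Isl1, Mnx1 and Ache were called higher in phrenic than in LMC radial cells, against 3.88% of all genes.

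The medial column list, 7 genes chosen with earlier results of these data known, had most of its members called in the comparisons that called Lhx3 and Lhx4. In phrenic against C3-C5 GFP-only cells 5 of 7 were called lower and 0 higher, beside 1.31% and 1.43% of all genes, with a median difference of -1.28. The 5 were Mecom, Prdm16, Epha3, Lmo4 and Isl2. Isl2 and Lmo4 are also counted in the LIM-homeodomain and complex partner lists above, so the lists are not separate evidence. Mnx1 (-0.07) and Fgfr1 (-0.24), a fibroblast growth factor receptor, were not called. In LMC radial cells 5 of 7 were lower and 0 higher, beside 2.03% and 1.70% of all genes, with a median of -1.05. The count in phrenic cells was 3 without C3-C5 GFP-only replicate 3. Mecom, a zinc-finger transcription factor, was at 10.17 ± 0.42 in phrenic, 8.50 ± 0.60 in LMC radial and 11.62 ± 0.08 in C3-C5 GFP-only cells. Its phrenic minus C3-C5 GFP-only difference of -1.45 ± 0.25 (limma, adjusted p = 0.0141) reached an adjusted p of 0.055 without C3-C5 GFP-only replicate 3 and was -0.49 as a mean over its probe sets (adjusted p = 0.0552). Prdm16, its close relative, was at 6.50 ± 0.54 in phrenic, 5.20 ± 0.48 in LMC radial and 8.02 ± 0.38 in C3-C5 GFP-only cells. Its call in phrenic cells (-1.52 ± 0.29, limma, adjusted p = 0.0242) was lost without C3-C5 GFP-only replicates 2, 3 or 4 or phrenic replicate 1 (highest adjusted p = 0.0866). Mecom, Prdm16, Lmo4 and Mnx1 were called higher in phrenic than in LMC radial cells, beside 3.88% of all genes. The ephrin receptor gene Epha3 was called lower (-1.39 ± 0.35, limma, adjusted p = 0.0393), beside 3.00% of all genes. For Prdm16 the call against LMC radial cells (1.30 ± 0.32, limma, adjusted p = 0.0346) was lost without C3-C5 GFP-only replicates 2 or 3, LMC radial replicates 1 or 3, or phrenic replicates 1 or 3 (highest adjusted p = 0.126). The count of 5 called in that comparison was 3 without C3-C5 GFP-only replicates 2 or 3, LMC radial replicate 3 or phrenic replicate 3.

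**Figure D5:**
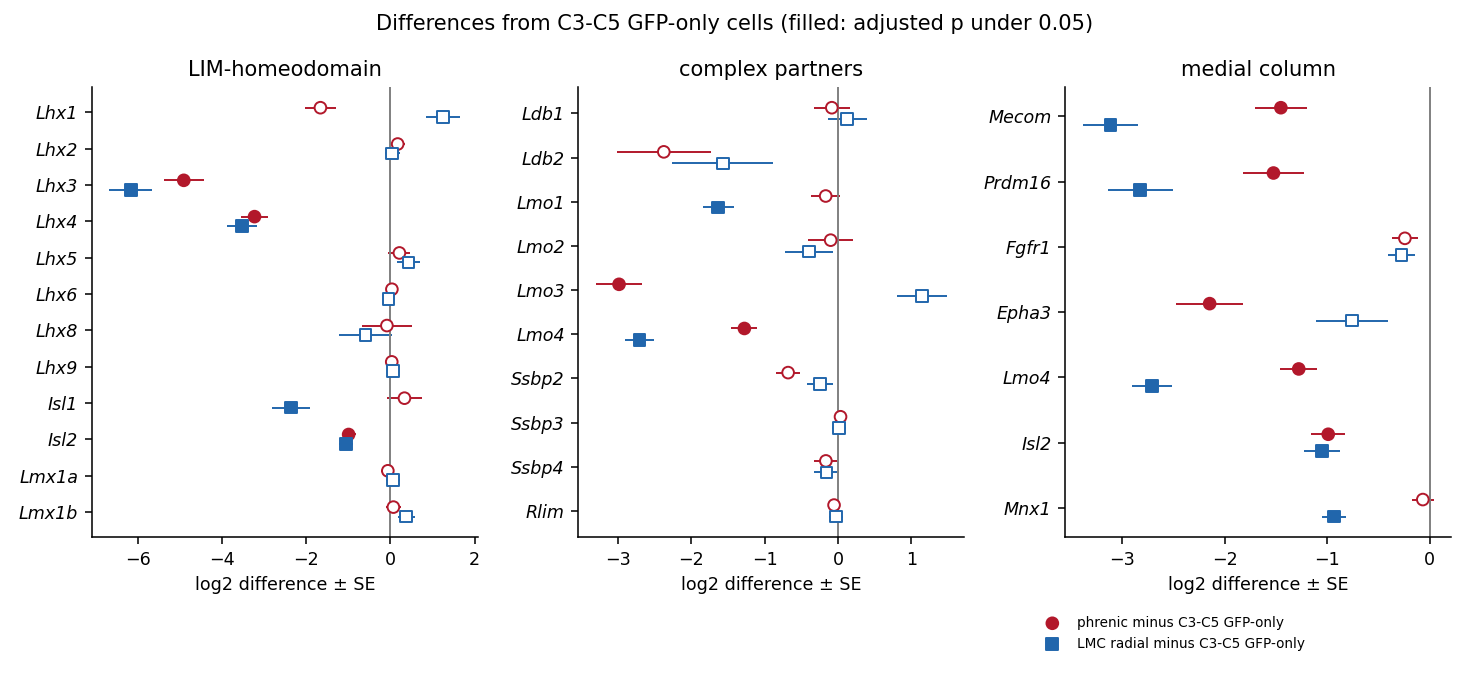
Log2 differences from C3-C5 GFP-only cells (x axis) for genes (rows) of the LIM-homeodomain, complex partner and medial column lists. Red circles are phrenic minus C3-C5 GFP-only and blue squares LMC radial minus C3-C5 GFP-only, bars are SE, and filled symbols passed at an adjusted p under 0.05. Lhx3 and Lhx4 lie furthest left among LIM-homeodomain genes, and Lmo3 lies at -2.99 in phrenic cells and to the right of 0 in LMC radial cells.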

How the data were processed

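The authors deposited 1 log2 value per probe set and array, made with RMA per the submitters' processing notes. RMA corrects background, normalizes probes by quantiles and summarises them, and its software and version are not given in the sources used here. The table held 45101 probe sets, and 64 controls were left out. Of 45037 tested, 34945 had 1 gene symbol, 932 several and 9160 none in the platform annotation. A gene was represented by its brightest of these single-symbol probe sets (18193 genes).

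A mean per cell type was fitted over all 11 arrays in limma 3.58.1 (R 4.3.3; 8 residual and 2.92 prior degrees of freedom). Two-sided p-values were adjusted (Benjamini and Hochberg) over the 45037 probe sets in each of 3 comparisons, and an adjusted p under 0.05 was a call. Without adjustment, p was under 0.05 for 5857 of these probe sets in phrenic minus C3-C5 GFP-only. It was so for 9962 in phrenic minus LMC radial and 9003 in LMC radial minus C3-C5 GFP-only. The script was tested on simulated data. The main fit did not pair arrays, and replicate number was used as a block in an alternative only. Deviations from the group means correlated above 0.1 in all 4 same-number pairs of phrenic and C3-C5 GFP-only arrays (r from 0.125 to 0.224). Some pairs of unlike number correlated more (up to 0.28), so these values do not show a pairing. Of the LMC radial arrays 0 of 6 same-number pairs with either other group passed 0.1. The members and 12 gene lists were chosen with earlier results of these data known. Named were all members, up to 4 genes per list with the smallest p, and the 5 genes of most similar profile per member; Epha3, Ldb1, Ldb2, Slc18a3, Fgfr1 and the genes below 5 on every array were named after their values were seen. Some genes of the lists were not analysed here, and counts are over the measured members. Alternatives were the normalization, centring, a filter and a floor at 5, the variance prior, array weights, blocks for replicate number and array set, fits of fewer arrays, gene means, and leaving out each array.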

Additional observations from a re-analysis of the deposited data

Results flagged for a closer look

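In 128 groups of 4 arrays (the named genes, the members and the list means), 7 had an array further from the rest than the 95% critical value of Dixon's test allows. Chance gives about 1 in 20. None was a probe set of Lhx3 or Lhx4.

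In phrenic arrays, Rmst was 6.42 in replicate 4 against 5.13 to 5.20 in the others, and Cdh5, an endothelial gene, was 4.61 in replicate 3 against 3.76 to 3.80. In C3-C5 GFP-only arrays, replicate 4 had 12.48 for Foxp1 (others 12.18 to 12.21), 5.87 for Lbx1 (others 6.60 to 6.74) and 8.05 for the mean of the sensory neuron list (others 7.67 to 7.70). C3-C5 GFP-only replicate 1 had 9.79 for Gfra1 (others 9.41 to 9.45) and 4.47 for Sox21 (others 5.76 to 5.90).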

How the results depend on the processing

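For the brighter probe sets of Lhx3 and Lhx4 in 3 comparisons, 129 of 134 alternative values kept their direction and their side of the threshold. In the 7 arrays with the higher 25th percentile, Lhx3 phrenic minus C3-C5 GFP-only was -4.31 (adjusted p = 0.0994), Lhx4 phrenic minus C3-C5 GFP-only -3.44 (0.0665) and Lhx4 LMC radial minus C3-C5 GFP-only -3.52 (0.0608). In the 4 other arrays Lhx4 phrenic minus C3-C5 GFP-only was -3.00 (0.059). Those fits hold fewer arrays. With 1 array left out, Lhx3 phrenic minus LMC radial ranged from 0.65, without phrenic replicate 4 (adjusted p = 0.0373), to 1.55. On the dimmer Lhx3 probe set that difference, never called, ranged from -0.093, without LMC radial replicate 2, to 0.28, and was -0.041 without phrenic replicate 4. The replicate block gave -4.90 for Lhx3 and -3.22 for Lhx4 in phrenic minus C3-C5 GFP-only, -5.87 and -3.41 in LMC radial minus C3-C5 GFP-only, and 0.97 and 0.18 in phrenic minus LMC radial, with no call changed. In phrenic minus C3-C5 GFP-only the block lost the named calls of Foxc1, Cdk1 and Nkx6-2 and no others, and gave 862 calls in all. Pairing by replicate number is not shown for any group, and 1 of 11 arrays correlated best with its own number. Of the other named calls 11 of 40 held under every alternative and 30 of 40 with any 1 array left out. The 5 medial column genes called in phrenic minus C3-C5 GFP-only became 3 with the floor at 5, 0 within the 7 arrays and 1 within the 4.

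Counts of all calls moved more. The 882 of phrenic minus C3-C5 GFP-only became 516 with the floor at 5, and 127 and 159 within the array sets. With 1 array left out they ran from 458, without C3-C5 GFP-only replicate 3, to 1240, without phrenic replicate 4. The 2979 of phrenic minus LMC radial became 1046 with the floor, 1410 with 2 types fitted and 778 within the 7 arrays, and ran from 1678, without LMC radial replicate 2, to 4266, without phrenic replicate 4. The 1694 of LMC radial minus C3-C5 GFP-only became 382 with the floor, 6685 with array weights, 3676 with 2 types fitted, 840 with array set as a block, 971 without dim probe sets and 98 within the 7 arrays. They ran from 606, without C3-C5 GFP-only replicate 3, to 2654, without phrenic replicate 4. RMA values carry no detection call, so a level below 5 is not shown to be absent.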

Other observations

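Genes of limb-innervating columns were lower in phrenic than in LMC radial cells. All 7 measured members of that list were called lower in phrenic than in LMC radial cells, beside 3.00% of all genes. In phrenic against C3-C5 GFP-only cells 3 of 7 were called lower, beside 1.31% of all genes, and 5 with replicate number as a block. Limma called 0 of 7 between LMC radial and C3-C5 GFP-only cells, with 4 at an unadjusted p under 0.05 and a median difference of 0.485, but 1 without phrenic replicate 2, 2 without phrenic replicate 4, 3 with these cell types fitted alone and 4 with array weights. Foxp1 was at 11.37 ± 0.24 in phrenic (SD, n = 4), 12.59 ± 0.04 in LMC radial (n = 3) and 12.26 ± 0.14 in C3-C5 GFP-only cells (n = 4). C3-C5 GFP-only cells thus had high Foxp1 and Aldh1a2 (10.91 ± 0.06, against 9.68 ± 0.31 in phrenic) beside the highest Lhx3 and Lhx4, as a bulk measure over sorted cells that need not be the same cells.

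Of 8 listed factors of neural progenitors, not all of them particular to motor neurons, Nkx6-1 and Nkx6-2 were called lower in phrenic than in C3-C5 GFP-only cells. Nkx6-1 and Irx3 were called lower in LMC radial than in C3-C5 GFP-only cells. Each was 2 of 8, beside 1.31% and 2.03% of all genes. Olig1 and Olig2 were below 5 on every array. Nkx6-1 differed by -2.54 ± 0.22 in phrenic (limma, adjusted p = 0.00017) and by -2.96 ± 0.23 in LMC radial cells (adjusted p = 0.000134). Nkx6-2 in phrenic cells (-1.09 ± 0.23, adjusted p = 0.0341) was kept with 1 array left out only where that was LMC radial replicate 2 or 3 or phrenic replicate 4 (highest adjusted p = 0.109), and was lost with replicate number as a block (adjusted p = 0.0731). Of 9 cycling progenitor genes, Cdk1 alone was called higher in phrenic than in C3-C5 GFP-only cells (1.77 ± 0.37, adjusted p = 0.0384), beside 1.43% of all genes, with 5 of 9 at an unadjusted p under 0.05 and a median difference of 1.01. With 1 array left out the call was kept only without phrenic replicate 2 or 4 (highest adjusted p = 0.112), and it was lost with replicate number as a block (adjusted p = 0.0765). The count was 2 without phrenic replicate 2. Limma called 0 of the 9 in each other comparison, with 1 unadjusted, and 1 in phrenic minus LMC radial without LMC radial replicate 2 or phrenic replicate 2. Among V2 interneuron genes Gata3 was called higher in LMC radial than in the other types, with all its values below 5 and its call against C3-C5 GFP-only cells lost in 8 of 11 fits that left out 1 array. Limma called 0 of 9 other interneuron genes and 0 of 8 glial, blood and vessel genes in any comparison, with at most 2 per list and comparison at an unadjusted p under 0.05, and of 4 sensory neuron genes Isl1 alone.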
